A study of Mus musculus with 9 samples.

Results

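Livers of mice fed a methionine- and choline-deficient (MCD) diet were compared with normal livers across all genes, using 6 of the 9 RNA sequencing libraries of the study. The 3 model libraries came from C57BL/6 mice on the MCD diet. The 3 normal libraries came from C57BL/6 mice that, per the labels, received saline and no MCD diet. Saline for the model mice is not mentioned in those labels. The other 3 libraries, from mice on the MCD diet treated with tormentic acid, a plant triterpenoid, only shared the estimate of the spread between libraries. No label ties a library to a mouse of its own, so p-values measure the spread between these libraries, which may be technical. Raw counts summed to 13950065 to 16475794 per normal library and to 15519086 to 16086294 per model library. Transcripts of the Y-linked genes Ddx3y, Eif2s3y, Kdm5d and Uty were counted in all 6 libraries. Of 21898 genes in the table, 13200 passed the filter on low counts and were tested, and 5071 had no count in any of the 6 libraries.

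Methionine supplies the methyl donor of the cell, and choline is the head group of phosphatidylcholine, which hepatocytes need to export triglyceride in very low density lipoprotein. A diet without both is a standard way to bring about fatty liver with inflammation and fibrosis in rodents, and it also makes animals lose weight, unlike most human fatty liver disease. Bulk liver RNA is dominated by hepatocytes, with macrophages, stellate cells, endothelium and bile duct cells contributing smaller parts.

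The tissue label was checked against markers of liver cells and of other organs, in CPM (counts per 1000000) scaled with trimmed mean of M-values (TMM) factors. All 7 hepatocyte markers were counted in every library and all 7 fell (Alb misses the threshold without model replicate 3, at -1.14 on the log2 scale and adjusted p = 0.0561), their sum going from 103785 to 131504 CPM in normal libraries to 41565 to 68734 CPM in model libraries. All 5 macrophage and monocyte markers rose, from a sum of 205 to 214 CPM to a sum of 1468 to 1608 CPM. Summed markers of stellate cells and fibroblasts went from 171 to 262 CPM to 613 to 1505 CPM, and those of cholangiocytes from 29.0 to 41.8 CPM to 102 to 492 CPM. Most of the cholangiocyte sum was Spp1, at 29.9, 37.1 and 25.8 CPM in normal and 439, 96.2 and 389 CPM in model libraries. Krt19 in model replicate 2, at 0.217 CPM, was below every normal library. All 4 kidney markers were at 0, as were 4 of 7 pancreas, 2 of 5 gut, 1 of 5 muscle and 1 of 5 adipose markers. The summed adipose markers went from 3.39 to 7.41 CPM in normal to 55.3 to 94.7 CPM in model libraries, and Cidec, a lipid droplet protein, made up nearly all of the model sum. The gut sum went from 55.5 to 62.4 CPM to 82.5 to 133 CPM, most of it Fabp2, a fatty acid-binding protein. The pancreas sum was 16.6 to 25.5 CPM in normal and 5.32 to 8.4 CPM in model libraries, most of it Cela1, an elastase. In bulk tissue, fewer cells of a type and less RNA per cell cannot be told apart, and this holds for every gene group described here.

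The transcriptome of the model livers differed from normal in a large part of the genes tested, with larger rises than falls. At an adjusted p under 0.05 by edgeR quasi-likelihood tests, 3357 genes rose (25.4% of those tested) and 2987 fell (22.6%), 6344 together (48.1%). By a test against a minimum change of 2-fold, 1518 genes rose (11.5%) and 460 fell (3.48%). Rising genes thus made up 52.9% of all calls and 76.7% of the calls past 2-fold. Of the 1518 rises past 2-fold, 491 lay among the 20% of tested genes with the lowest mean level and 472 among the next 20%. Low genes could pass the filter through the group where they are high, so the excess of large rises describes the genes tested. The median log2 fold change was 1.80 among genes that rose and -0.88 among genes that fell. A log2 fold change past 3 was reached by 582 rising and 109 falling genes, and past 5 by 72 rising and 33 falling genes. Of the 6344 genes called, 6171 had no overlap between the 3 normal and the 3 model libraries. A call favours genes without overlap, and the share without overlap among all tested genes was not counted. This number and later ones of its kind are therefore descriptions.

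Direction went with the level of the gene. Among the 20% of genes with the lowest mean level (0.209 to 3.55 CPM), 39.2% rose and 4.55% fell. Low genes that passed the filter through the model libraries alone had to be higher there, so this share is a description of the genes tested. Among the 20% of genes with the highest level (above 54.98 CPM), 10.3% rose and 49.7% fell. These most abundant genes held 251 of the 460 falls past 2-fold and 85 of the 1518 rises past 2-fold. Both directions were spread over the genome, with 21.7% (chromosome 18) to 28.9% (chromosome 6) of the tested genes of chromosomes 1 to 19 and X rising. None of the 12 tested genes of the mitochondrial genome was called.

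**Figure D1:**
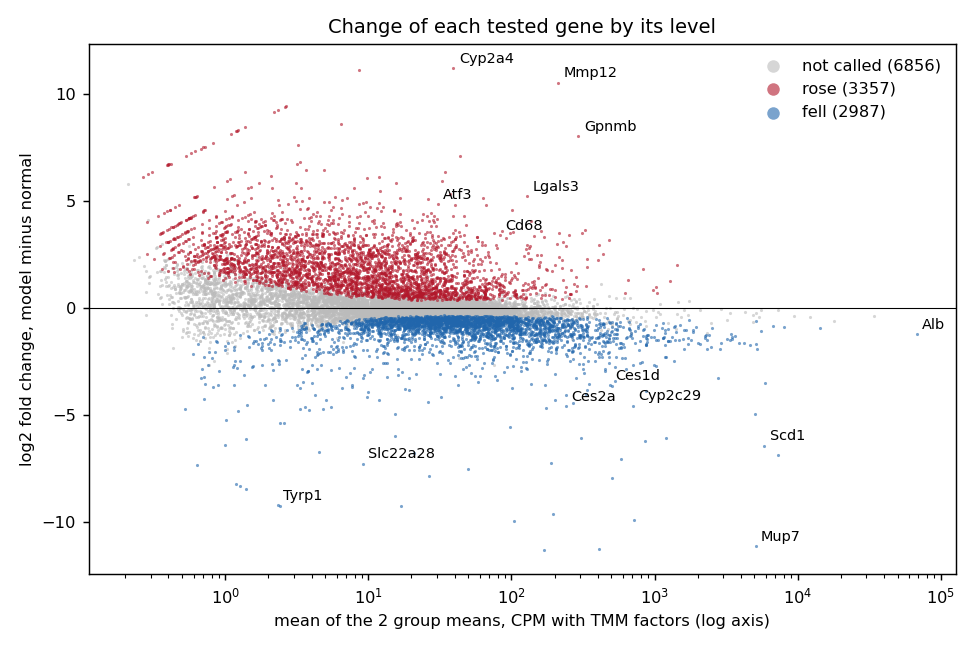
Log2 fold change (model minus normal, TMM-scaled) of each of 13200 tested genes against its mean level in CPM on a log axis, with genes that rose and fell by the edgeR test in colour. Rising genes crowd the low levels, where 39.2% of the lowest 20% of genes rose, and falling genes the high levels, where 49.7% of the highest 20% fell.

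All fold changes depend on how the libraries are scaled. TMM factors were 0.824 to 0.842 in normal and 1.19 to 1.44 in model libraries, and with library totals alone the median gene was higher in the model group by 0.69 on the log2 scale. Every change given here is set against the median gene, and a gene whose fall is smaller than this shift holds a larger part of the counts in the model libraries than in the normal ones.

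The library composition itself, which needs no scaling factor, was less concentrated in the model group. The 100 most abundant genes held 46.8%, 46.4% and 45.96% of counts in normal replicates 1 to 3 and 36.3%, 38.9% and 33.8% in model replicates 1 to 3. The groups did not overlap, and the mean difference was -10.1 percentage points (exact two-sided permutation p = 0.1, the smallest that 3 against 3 libraries allow). The number of genes needed to reach 50% of the counts was 132, 136 and 140 in the normal libraries and 407, 297 and 480 in the model libraries. Genes with at least 10 counts numbered 11951 ± 117 in normal and 13267 ± 303 in model libraries (mean ± SD, n = 3). Genes that fell went from 63.5 ± 1.27% to 39.6 ± 5.59% of all counts, and genes that rose from 3.40 ± 0.118% to 14.7 ± 2.79%. The shares of genes that fell and of genes that rose follow from the calls and are given as a description.

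**Figure D2:**
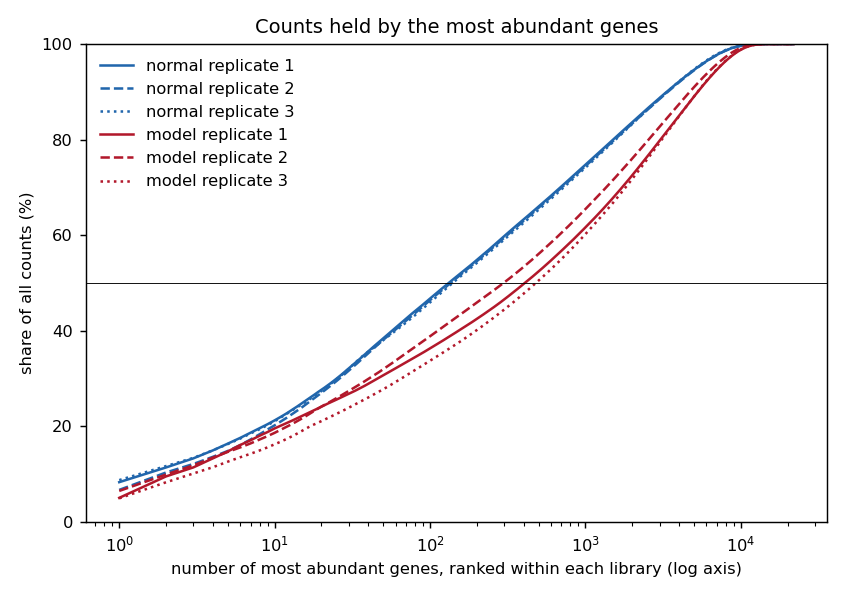
Cumulative percent of each library's counts (vertical axis) against gene rank by abundance within that library (log axis), one line per library. The 3 normal lines lie close together and reach 50% at 132 to 140 genes, and the 3 model lines lie below them and reach it at 297 to 480 genes.

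The 10 largest losses of library share included genes of secreted hepatocyte proteins and of a lipogenic enzyme. In CPM of the library total, without TMM factors, albumin (Alb) was at 83539.6, 67388 and 87879 in the normal and 44819, 65172 and 49748 in the model libraries. The protease inhibitor gene Serpina1e was at 10849.7, 12088 and 13243 CPM in normal and 43.4, 267 and 171 CPM in model libraries. The same quantity for Scd1, the main stearoyl-CoA desaturase of liver, was 14234, 7195 and 7458 against 84.1, 233 and 210.0. Every model library was below every normal library for all 3 genes. Mup7 and Mup3 (major urinary proteins), Serpina3k, Fga and Fgb (fibrinogen chains), Car3 (a carbonic anhydrase) and Cyp2e1 completed the 10 largest losses. For Cyp2e1, an ethanol-inducible cytochrome P450, model replicate 2 stood at 6061 CPM, near the normal 6672, 6744 and 6105, while model replicates 1 and 3 stood at 1185 and 1864. Its log2 fold change of -1.69 was -2.88 without model replicate 2, and its call was lost without normal replicate 1, normal replicate 2, model replicate 1 or model replicate 3 (adjusted p up to 0.0827).

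The 10 largest gains in the same quantity included 5 transcripts of the mitochondrial genome. The largest of these, mt-Co1 (a cytochrome c oxidase subunit), was at 30778, 36354 and 29394 CPM in normal and 50749, 34323 and 33550.5 CPM in model libraries, and the groups overlapped. The lysosomal genes Psap and Ctsb, both of which rose, were also among them. Psap, the precursor of the saposins that help break down sphingolipids, was at 475, 472 and 493 CPM in normal and 3568, 2458 and 3213 CPM in model libraries. Ctsb, the protease cathepsin B, was at 684, 585 and 622 against 2741, 2069 and 2542 CPM. Neither gene overlapped between the groups. Cyp4a14, a fatty acid hydroxylase and PPAR alpha target, went from 152, 637 and 132 to 1684, 2439 and 949.8 CPM. Leaving out normal replicate 1, normal replicate 3 or model replicate 2 ended its call, with adjusted p of 0.0743, 0.0699 and 0.0651, and its log2 fold change was 1.83 with all libraries and 2.92 without normal replicate 2. The plasma protein genes Ahsg and Hpx also gained in CPM of the library total, while their TMM-scaled changes were negative and not called.

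Grouped by the cellular location given in the deposited annotation, and leaving out the mitochondrial genome, products of the extracellular space went from 30.2 ± 0.159% to 22.1 ± 2.23% of counts. Genes of the endoplasmic reticulum went from 25.1 ± 1.19% to 18.3 ± 2.09% and those of the peroxisome from 2.91 ± 0.149% to 2.29 ± 0.347%. Lysosomal genes went from 2.55 ± 0.102% to 3.81 ± 0.276%, cytoskeletal genes from 3.39 ± 0.0424% to 5.61 ± 0.545% and nuclear genes from 19.7 ± 0.153% to 25.04 ± 1.39%. Each of these had p = 0.1 by the exact permutation test, which is the smallest possible. Nuclear-encoded genes of the mitochondrion held 15.5 ± 0.0832% and 14.6 ± 0.799% (exact permutation p = 0.3). A share of counts and a count of genes did not always point the same way. Of 760 tested genes of the extracellular space, 297 rose and 211 fell, although the compartment's share of counts was lower in all 3 model libraries.

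The firmest rises, those with the smallest p in the test against 2-fold, included genes known from macrophages and other myeloid cells. Lgals3, the carbohydrate-binding protein galectin-3 (ENSMUSG00000050335, chromosome 14, 47367751 to 47386160 on GRCm38), was at 7.22, 7.41 and 5.55 CPM in normal and 289, 223 and 240.0 CPM in model libraries, a log2 fold change of 5.22 ± 0.22 (standard error). Mmp12, a macrophage elastase, was at 0.442, 0.426 and 0 CPM in normal and 400.3, 431 and 435 CPM in model libraries. Gpnmb, a glycoprotein of lysosomes and melanosomes, was at 2.14, 2.73 and 2 CPM against 567, 539 and 647 CPM. In all 3 genes the model libraries lay close to each other and far above the normal ones. Cd68, a lysosomal protein of macrophages, was at 14.9, 14.4 and 14 CPM in normal and 168, 133 and 153 CPM in model livers. The complement receptor gene C5ar1 rose by 3.82 ± 0.17 on the log2 scale, and Ptafr, the receptor for platelet-activating factor, by 4.38 ± 0.22. Atf3, a stress-induced transcription factor, was at 2.504, 1.703 and 1.93 CPM in normal and 61.6, 49.4 and 66.03 CPM in model livers. The others were Arhgap25 (a Rac-inactivating protein of leukocytes), Anxa3 (an annexin), Gpr137b (a lysosomal membrane protein), Rad51b (a recombination factor) and Osbpl3 (an oxysterol-binding protein relative). Their log2 fold changes lay between 3.56 and 4.70. The 12 genes had adjusted p between 4.42e-07 and 3.08e-06 in the edgeR test against 2-fold.

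The firmest falls included enzymes and transporters of hepatocytes. Ces2a, a carboxylesterase (ENSMUSG00000055730, chromosome 8, 104734003 to 104741634 on GRCm38), was at 404, 430.4 and 545 CPM in normal and 12.4, 28.8 and 16.1 CPM in model libraries, a log2 fold change of -4.59 ± 0.32. Cyp2c29, a drug- and fatty acid-metabolising P450, was at 1555, 1078 and 1434 CPM against 43.1, 77.1 and 52.2 CPM. Slc22a28, a member of the organic ion transporter family, was at 14.5, 14.99 and 24.8 CPM against 0.0883, 0.217 and 0.0433 CPM. In each of the 3 genes, model replicate 2 was the highest model library and still far below every normal library. The carboxylesterase genes Ces1d and Ces1f changed by -3.60 ± 0.24 and -3.54 ± 0.32. Scnn1a, a subunit of the epithelial sodium channel, changed by -3.82 ± 0.36, Susd4, a regulator of complement, by -4.37 ± 0.40, and the scaffold protein gene Homer2 by -2.85 ± 0.24. Without model replicate 2 the log2 fold changes of Slc22a28, Scnn1a and Susd4 were -7.95, -4.44 and -5.17. The zinc finger gene Zfp707 and Plekhb1 showed smaller but tight changes. Zfp707 was at 41.6, 48.03 and 47.4 CPM in normal and 10.99, 9.23 and 10.1 CPM in model libraries. Scd1 and Pitx3 completed the 12. Pitx3 lies next to Elovl3, and whether the counting used strand was not given, so reads of the 2 genes cannot be told apart. Carboxylesterase, Cyp2c, Mup, Ugt1a, MHC and clade A serpin genes have close copies, and the handling of reads shared by copies is not stated, so the split among members is uncertain.

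**Figure D3:**
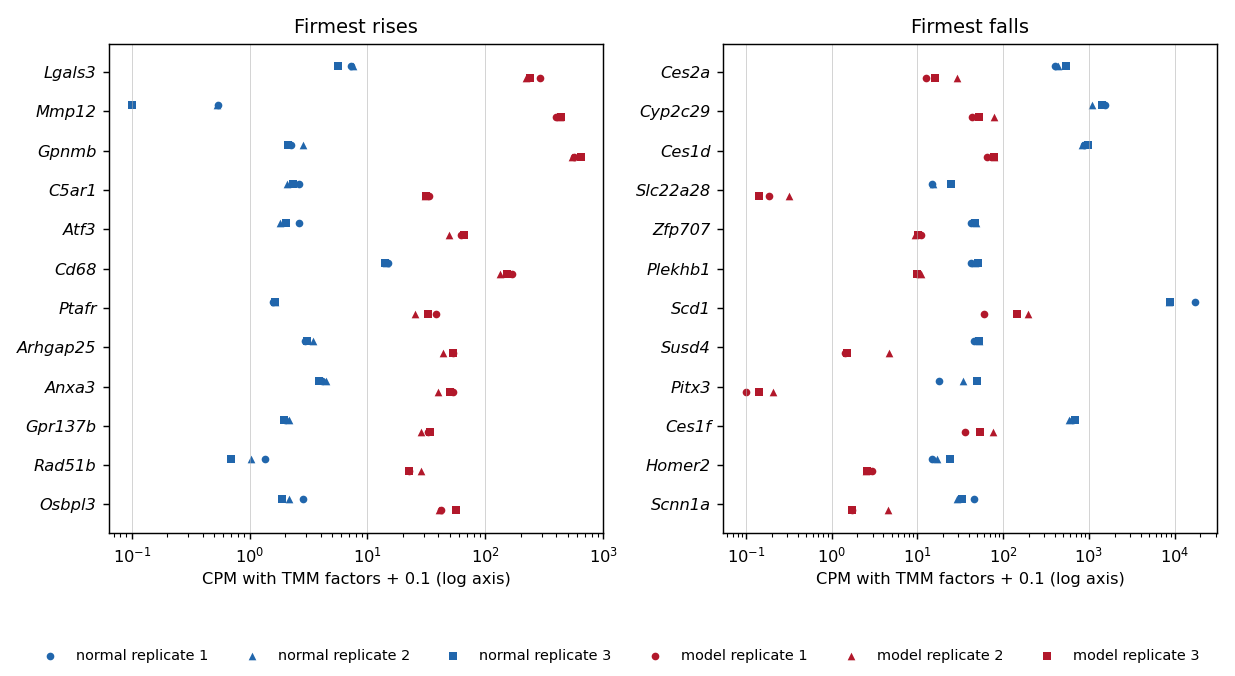
Level of the 12 firmest rising and 12 firmest falling genes in each of 6 libraries, as CPM plus a small offset on a log axis, with a point per library coloured by group. For every gene the normal and model points lie apart, as for Lgals3, at 5.56 to 7.41 CPM in normal and 223 to 289 CPM in model libraries.

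Promoters from RefSeq (GRCm38.p6), each with 250 bases before and 50 after a transcription start, were available for 17 of the 24 genes. They were searched on both strands for 10 motifs, and those of 6 genes held at least 1. Promoters are printed for 4 of these genes, 3 that rose and 1 that fell, so that the motif letters can be seen in place. Capitals mark every match. The Mmp12 promoter (chr9:7347124-7347423, + strand, one of 2 entries with a match) holds AP-1 and TATA box letters, and the Gpnmb promoter (chr6:49036268-49036567, + strand) AP-1 and HNF4A letters. The Cd68 promoter (chr11:69666121-69666420, - strand) holds AP-1 letters, and the Cyp2c29 promoter (chr19:39286835-39287134, + strand) a TATA box.
Mmp12: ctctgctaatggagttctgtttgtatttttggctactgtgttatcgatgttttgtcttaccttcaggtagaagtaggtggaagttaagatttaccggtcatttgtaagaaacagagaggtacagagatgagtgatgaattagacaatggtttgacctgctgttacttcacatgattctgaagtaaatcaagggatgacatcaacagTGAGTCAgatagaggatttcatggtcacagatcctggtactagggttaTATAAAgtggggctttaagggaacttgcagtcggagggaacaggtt
Gpnmb: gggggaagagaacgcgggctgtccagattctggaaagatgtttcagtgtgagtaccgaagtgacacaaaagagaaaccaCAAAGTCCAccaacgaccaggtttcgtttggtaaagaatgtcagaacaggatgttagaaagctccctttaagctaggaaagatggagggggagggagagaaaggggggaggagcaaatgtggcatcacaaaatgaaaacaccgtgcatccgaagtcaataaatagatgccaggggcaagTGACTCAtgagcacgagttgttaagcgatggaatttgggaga
Cd68: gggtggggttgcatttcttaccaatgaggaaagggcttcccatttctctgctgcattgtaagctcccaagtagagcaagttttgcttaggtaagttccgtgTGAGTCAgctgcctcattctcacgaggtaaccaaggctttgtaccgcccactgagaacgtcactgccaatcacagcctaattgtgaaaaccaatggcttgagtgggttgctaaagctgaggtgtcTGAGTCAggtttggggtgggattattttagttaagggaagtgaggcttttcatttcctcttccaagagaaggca
Cyp2c29: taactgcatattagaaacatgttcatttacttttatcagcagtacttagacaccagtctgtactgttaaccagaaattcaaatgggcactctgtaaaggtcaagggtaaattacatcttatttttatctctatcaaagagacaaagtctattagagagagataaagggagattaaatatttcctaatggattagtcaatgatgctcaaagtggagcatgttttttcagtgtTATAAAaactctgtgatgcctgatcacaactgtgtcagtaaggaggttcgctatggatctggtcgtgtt

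For each motif, the percent is of single promoters, while a gene counts if any of its promoters matches. Genes with several promoters have more chances, so percent and gene count are not on the same scale. The AP-1 letters were TGANTCA, found in 7.81% of all 32851 promoters and in 3 of the 17 genes. The TATA box letters TATAAA were in 13.6% of all promoters and in 3 of the 17 genes. The HNF4A letters CAAAGTCCA were in 0.475% of all promoters and in 1 of the 17 genes. The ETS and PU.1 letters GAGGAAGT (3.20% of all promoters) were in 2 of the 17 genes and the STAT letters TTCNNNGAA (8.30%) in 1. The searched letters of TFEB and MITF (TCACGTGA, 0.974%), of sterol response (TCACNCCAC, 1.24%), HNF1 (GTTAATNA, 2.54%), C/EBP (TTGCGCAA, 0.183%) and E2F (TTTGGCGC, 0.514%) were in none of these windows. The TFEB and sterol letters share their first TCAC, and in the printed promoters no matches of different motifs overlap. A match is a description and not a binding site. Promoter features of rising and falling genes were not compared, because only 79.6% of the tested genes had a promoter in the table, under the 80% that such a comparison needs.

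Some genes were counted in one group only. There were 25 with at most 3 counts over the normal libraries and at least 20 in every model library, and 3 with the reverse pattern. Vsig8, an immunoglobulin domain protein, had 0 counts in the normal libraries and 316, 477 and 271 in the model libraries, at least 215-fold higher when the normal group as a whole is set to 3 counts. Siglecf, a sialic acid-binding receptor of eosinophils and some macrophages, had 0, 0 and 1 counts against 169, 111 and 135. Cyp2a4, a female-biased P450 in mouse liver, had 1, 0 and 0 counts against 3197, 737 and 1253. The neutrophil-attracting chemokine gene Cxcl5 had 0 counts in normal libraries and 166, 20 and 171 in model libraries, with model replicate 2 the lowest. Gdf3 (a growth factor of the TGF-beta family), Rbm24 (an RNA-binding protein), Sprr1a (a cornified envelope protein) and Vmn2r3 (named as a vomeronasal receptor) were also counted almost only in model libraries.

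Besides Pitx3, the genes counted only in normal libraries were 2 enzymes of melanin synthesis. Dct (dopachrome tautomerase) had 82, 50 and 56 counts in the normal libraries and 0 in the model libraries, at least 104-fold lower. Tyrp1 had 60 counts in each normal library and 0 in the model libraries, at least 99.2-fold lower. Other pigment cell genes were looked up after these values were seen. Pmel, a melanosome matrix protein, had 17, 22 and 24 counts in normal and 3, 4 and 1 in model libraries. Tyr, the tyrosinase, had 7, 4 and 4 against 0, 1 and 0, and Sox10, a neural crest transcription factor, 7, 15 and 2 against 0. These low counts describe the libraries, and whether pigment cells of the sampled tissue contributed was not tested.

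Most members of the innate immune families described here rose. Families were defined by symbol and lists by hand; their counts stand beside the backgrounds of 25.4% rising and 22.6% falling. Of 12 Toll-like receptors, the sensors of microbial and damage signals, 11 rose and 1 fell. Tlr13 was at 3.46, 3.66 and 2.15 CPM in normal and 68.8, 37.1 and 53.6 CPM in model libraries. Tlr5, the flagellin receptor, went the other way, at 8.03, 6.56 and 6.81 CPM against 2.91, 2.77 and 2.81 CPM. Neither overlapped between groups. Siglec and MS4A proteins of leukocytes rose in 13 of 16 tested, and C-type lectins in 15 of 21, with 3 falling. Of 80 genes named as CD antigens, 56 rose and 8 fell. Phagocytic receptors and bridging proteins, which bind dead cells and lipids, rose in 23 of 30. Trem2, a lipid-sensing receptor of macrophages, was at 1.62, 1.11 and 0.444 CPM in normal and 73.6, 51.5 and 68.7 CPM in model libraries, a log2 fold change of 5.92 ± 0.41. The 2 that fell, Colec12 and Timd4, are scavenger and phosphatidylserine receptors. Timd4, which marks resident Kupffer cells, was at 10.2, 11.8 and 9.63 CPM in normal and 3.62, 2.72 and 1.69 CPM in model libraries. Its fall (adjusted p = 0.0281) missed the threshold in 5 of 6 fits that left out 1 library (adjusted p up to 0.08997, without model replicate 3). The other listed Kupffer cell markers, Clec4f, Vsig4 and Marco, were higher in every model library than in every normal library. The 4 markers summed to 196 to 203 CPM in normal and 265 to 461 CPM in model libraries, and of the 4, 1 rose and 1 fell. Summed macrophage markers, at 205 to 214 CPM in normal and 1468 to 1608 CPM in model libraries, moved with all of these families, and their part in them was not tested.

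Among signals that recruit and present to leukocytes, more members rose than fell. Chemokine receptors rose in 13 of 18 tested, with none falling. Cxcr4 was at 1.84, 1.19 and 0.889 CPM in normal and 25.5, 13.2 and 22.7 CPM in model libraries. Its ligand Cxcl12 fell, from 358, 368 and 435 to 219, 229 and 224 CPM, but was not called with library totals (-0.10 on the log2 scale, adjusted p = 0.627). Of 23 chemokines, 13 rose and 3 fell. TNF superfamily members and receptors rose in 15 of 25 and fell in none. Among the genes of the major histocompatibility complex (MHC), 13 of 21 rose and 1 fell. The class II gene H2-Ab1 was at 79.2, 51.7 and 40.7 CPM against 554, 336 and 387 CPM. H2-Q10, a class I gene that hepatocytes secrete, was the 1 that fell, at 2703, 2581 and 2318 CPM in normal and 977, 1492 and 988 CPM in model libraries. The interferon-induced OAS, IFIT and IFI genes rose in 24 of 36 and fell in 1. Summed chemokines overlapped between groups, at 711.6, 521.5 and 574 CPM in normal and 633, 597 and 574 CPM in model libraries. Summed MHC genes also overlapped, at 6049.5, 5593.5 and 4875 CPM against 6071, 5865 and 4644 CPM. The sums of chemokine receptors, of the TNF group and of the interferon-induced genes were higher in every model library than in every normal library.

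Matrix and adhesion genes also rose in most members of the families described. Of 30 tested collagens, 16 rose and 3 fell. Col4a1, a basement membrane collagen, was at 42.6, 36.4 and 37.5 CPM in normal and 175, 139.9 and 304 CPM in model libraries. Col5a3 fell, from 57.4, 72.3 and 54.5 to 12.3, 22.9 and 21.8 CPM. Laminins, which join cells to basement membranes, rose in 8 of 11. Lamc3 rose, at 1.47, 1.96 and 1.41 CPM in normal and 36.3, 3.04 and 28.9 CPM in model libraries. Model replicate 2 was close to the normal libraries for this gene, and limma-voom did not call it (adjusted p = 0.0971). Lama3 was the 1 laminin that fell, at 10.2, 9.88 and 8.66 CPM against 1.01, 1.901 and 0.953 CPM. Integrins rose in 19 of 29, led by leukocyte chains such as Itgax, at 2.87, 1.79 and 0.741 CPM against 77.5, 57.7 and 80.97 CPM. Of 15 matrix metalloproteinases, 10 rose and 1 fell, and of 28 ADAM and ADAMTS proteases, 19 rose and 2 fell. Mmp13, a collagenase, changed by 5.12 ± 0.58 on the log2 scale, Mmp19 by -0.90 ± 0.16 (-0.23 and not called with library totals), and Adam8, a protease of leukocytes, by 6.34 ± 0.39. The stellate cell marker sum of 171 to 262 CPM in normal and 613 to 1505 CPM in model libraries moved with this group. Col1a1 was at 7.44, 12.3 and 5.04 CPM in normal and 183, 64.6 and 329 CPM in model libraries. Acta2, the smooth muscle actin of activated stellate cells, was not called, at 15.7, 31.5 and 5.18 CPM against 11.6, 5.59 and 12.9 CPM. The part of these cells in the matrix genes was not tested.

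Genes of the cytoskeleton and of cell division also rose more often than they fell. Of 38 genes of actin filament assembly, 31 rose and 2 fell. Capg, a capping protein of macrophages, was at 3.61, 3.32 and 1.33 CPM in normal and 85.4, 71.5 and 75.6 CPM in model libraries. Cell cycle kinases and mitotic regulators rose in 31 of 40. The proliferation marker Mki67 was at 3.02, 5.195 and 2 CPM against 38.1, 42.04 and 27.6 CPM. Tk1, a thymidine kinase of DNA synthesis, fell, from 23.4, 20.4 and 16.4 to 9.97, 8.69 and 6.88 CPM, and was not called with library totals (-0.55 on the log2 scale, adjusted p = 0.0771). Kinesins, motor proteins of microtubules and the spindle, rose in 16 of 33 and fell in 4. Targets of YAP and TEAD, which respond to cell shape and tension, rose in 13 of 23 and fell in 2. Potassium channels rose in 14 of 28 and fell in 2.

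**Figure D4:**
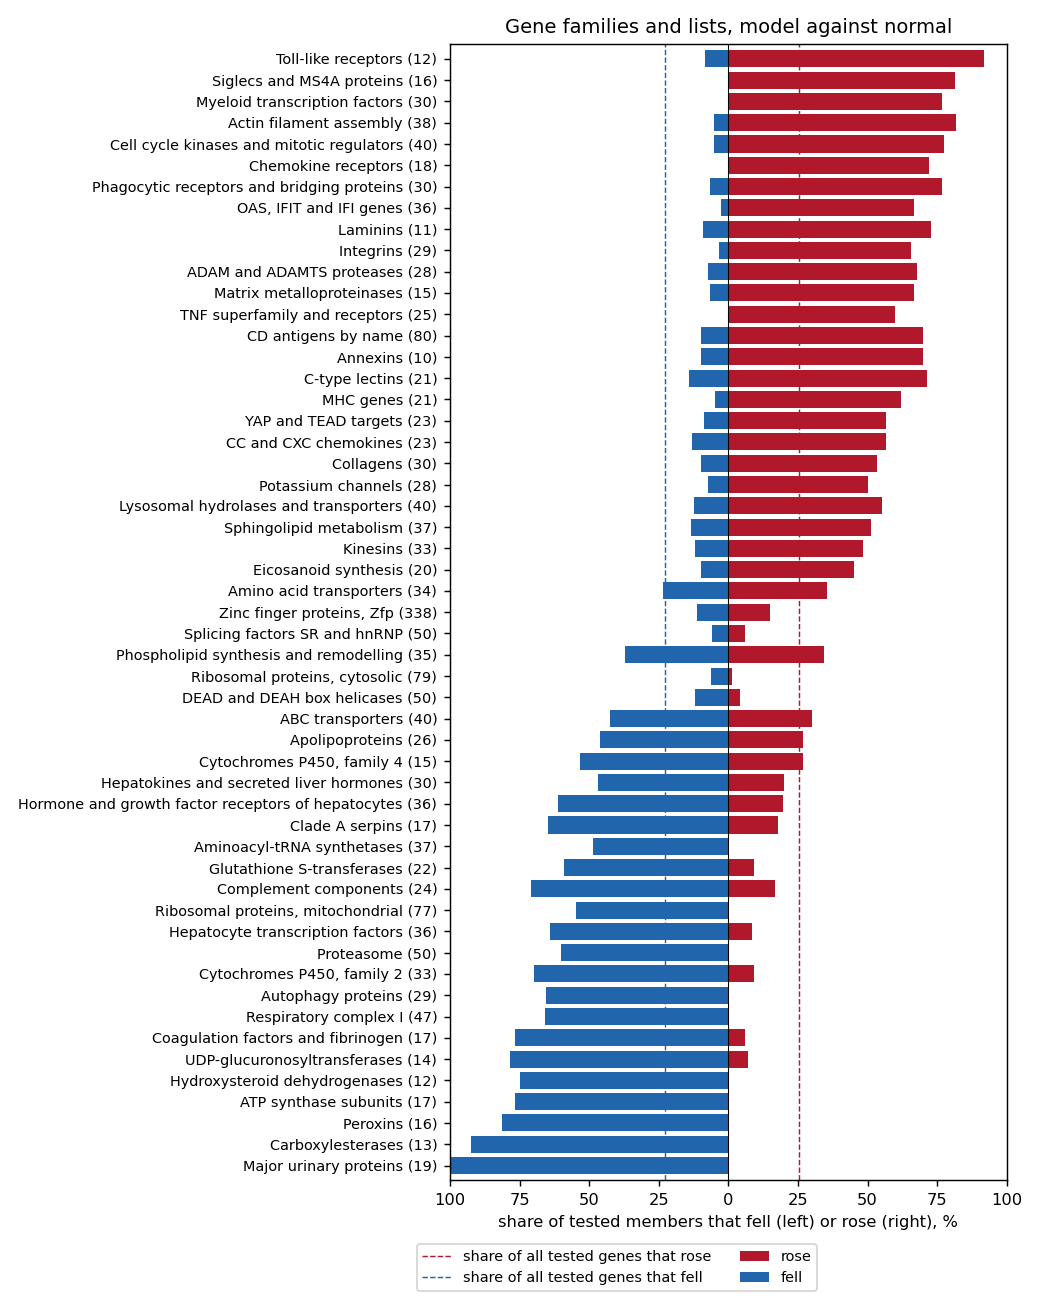
Percent of tested members that rose (right) and fell (left) in 53 gene families and lists, with dashed lines at the shares of all tested genes, 25.4% rising and 22.6% falling. Toll-like receptors stand at 91.7% rising and major urinary proteins at 100% falling; cytosolic ribosomal proteins lie near 0 on both sides on the TMM scale, although with library totals 46 of 79 were higher.

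On the TMM scale, most transcription factors listed for hepatocytes fell, and most of those listed for myeloid cells rose. Of 36 factors listed for hepatocytes, 23 fell and 3 rose, with a median log2 fold change of -0.72 (6 fell and 6 rose with library totals, median -0.08). In 24, a count with no background share, every model library was below every normal library. Hnf4a, a master regulator of hepatocyte genes, was at 855, 966 and 906 CPM in normal and 353, 576 and 409 CPM in model libraries, a log2 fold change of -1.03 ± 0.24 (-0.36 and not called with library totals). Nr0b2, the bile acid-induced repressor SHP, was at 71.3, 87.97 and 124 CPM against 23.2, 16.4 and 20.6 CPM. Both had no overlap between the groups. The carbohydrate sensor Mlxipl (ChREBP) changed by -1.85 ± 0.22, the growth hormone mediator Stat5b by -1.20 ± 0.20 (-0.52 and not called with library totals), and Bcl6, a repressor that acts in male-biased liver gene expression, by -1.63 ± 0.19. Ppara, the fatty acid-sensing nuclear receptor, was at 94.3, 87.3 and 92.2 CPM against 41.4, 67.8 and 60.05 CPM and was not called (adjusted p = 0.0681).

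The 3 hepatocyte factors that rose were Dbp, Cux2 and Tef. Dbp and Tef are output factors of the circadian clock. Dbp was at 0.368, 0.256 and 0.963 CPM in normal and 54.5, 11.7 and 4.503 CPM in model libraries, a wide spread within the model group. Its log2 fold change of 5.43 ± 0.97 became 3.88 without model replicate 1 and 6.18 without normal replicate 3, and limma-voom did not call it (adjusted p = 0.0795). Tef was at 30.9, 36.5 and 47.5 CPM against 105, 56.5 and 44.9 CPM, and model replicate 3 lay within the normal range. Tef lost its call without model replicate 1 (0.40, adjusted p = 0.218), normal replicate 1 or normal replicate 2, and with the replicate block. Nfil3, a clock-linked repressor that acts on many of the same genes as Dbp, was at 93.5, 78.1 and 90.5 CPM in normal and 5.43, 11.7 and 24.6 CPM in model libraries, a log2 fold change of -2.65 ± 0.41 (-3.36 without model replicate 3). The hour of collection is not stated, and its part in these clock-linked values was not tested. Cux2, a female-biased factor in mouse liver, was at 0.442, 0.341 and 0.222 CPM against 9.797, 0.706 and 1.04 CPM, and without model replicate 1 its log2 fold change went from 3.50 to 1.37 and its call was lost (adjusted p = 0.103), as it was with limma-voom.

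Of 30 transcription factors listed for myeloid cells, 23 rose and none fell. In 25, a count with no background share, every model library was above every normal library. Spi1 (PU.1), the central factor of macrophage identity, was at 11.6, 8.35 and 7.703 CPM in normal and 68.4, 56.2 and 51.8 CPM in model libraries. Irf8, a monocyte lineage factor, was at 9.796, 9.03 and 7.33 CPM against 77.7, 45.2 and 57.8 CPM, and Zeb2, which maintains macrophage identity, at 14.6, 14.3 and 17.1 CPM against 62.8, 56.5 and 69.8 CPM. Runx1 rose by 3.22 ± 0.33 and Bhlhe41 by 4.15 ± 0.50 on the log2 scale. Cebpb and Nr1h3, which hepatocytes also express, were not called, with -0.70 ± 0.28 and -0.23 ± 0.16.

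Receptors through which hepatocytes sense hormones fell more often than they rose. Of 36 on the list, 22 fell and 7 rose, with a median of -1.03 (15 fell and 11 rose with library totals, median -0.36). Thrb, the liver's thyroid hormone receptor, was at 42.6, 46.7 and 70.4 CPM in normal and 8.69, 15.4 and 13.2 CPM in model libraries. The adrenergic receptor gene Adra1b was at 134, 91.98 and 100.4 CPM against 7.72, 24.3 and 15.3 CPM, and Tfr2, the iron-sensing transferrin receptor, at 549, 517 and 455 CPM against 122, 197 and 130.3 CPM. None of the 3 overlapped between groups. Ghr and Egfr, named after their values were seen, changed by -2.56 ± 0.33 and -2.35 ± 0.47. Osmr, the oncostatin M receptor, rose, from 4.57, 4.51 and 4.44 to 20.8, 11.7 and 25.7 CPM.

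Secreted liver hormones were divided. Of 30 tested hepatokines, 6 rose and 14 fell, with a median of -0.80 (6 and 5 with library totals, median -0.05). Fgf21, a fasting and amino acid-deprivation hormone, was at 2.799, 6.05 and 1.48 CPM in normal and 72.5, 23.2 and 67.5 CPM in model libraries, a log2 fold change of 4.001 ± 0.53 (4.66 without normal replicate 2). Inhbb and Inhbe, activin subunits, were at 4.198, 2.38 and 2 against 39.1, 18.7 and 27.8 CPM and at 17.3, 32.3 and 22.8 against 124, 97.8 and 72.5 CPM. Every model library was above every normal library for all 3. Fetub, a plasma protease inhibitor, fell from 768, 718 and 620.4 to 239.5, 294 and 262 CPM.

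Families of proteins made by hepatocytes fell in most of their members. All 19 tested major urinary proteins fell, with a median log2 fold change of -6.77. Of 13 tested carboxylesterases, 12 fell and none rose (median -2.30). UDP-glucuronosyltransferases, which conjugate hormones and drugs, fell in 11 of 14, hydroxysteroid dehydrogenases in 9 of 12 and family 2 P450 enzymes in 23 of 33. Of 22 glutathione S-transferases, 13 fell and 2 rose (median -0.75), and with library totals 9 fell and 6 rose (median -0.06). Of 17 coagulation factors and fibrinogen chains, 13 fell, and F13a1, which macrophages also make, was the 1 that rose. The F13a1 call was lost when normal replicate 1, model replicate 1 or model replicate 3 was left out, with adjusted p of 0.09399, 0.0626 and 0.0542, and its log2 fold change of 2.37 was 4.49 without normal replicate 2. Of 24 complement components, 17 fell and 4 rose. The risers of smallest p were C1qa, C1qb and C1qc, the chains of C1q, a macrophage product. Members of 1 family did not always share a direction. Family 4 P450 enzymes rose in 4 and fell in 8 of 15 (6 and 6 with library totals). Cyp4f18, a leukotriene hydroxylase of leukocytes, was at 0.516, 0.937 and 0.667 CPM in normal and 13.2, 5.43 and 9.27 CPM in model libraries, and Cyp4f14, a liver member, at 410.3, 286 and 380.5 CPM against 18.5, 78.9 and 31 CPM. Cyp4f14 changed by -3.07 on the log2 scale, and by -3.87 without model replicate 2. Aldo-keto reductases rose in 4 of 14, among them Akr1b3, Akr1b10 and Akr1b8, and fell in 9, among them Akr1c13, Akr1c19 and Akr1c12. The summed hepatocyte markers, at 103785 to 131504 CPM in normal and 41565 to 68734 CPM in model libraries, moved with these families, and their part was not tested.

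Nuclear genes for mitochondria, peroxisomes and protein turnover made small falls of similar size on the TMM scale. Of 47 subunits and assembly factors of respiratory complex I, 31 fell and none rose (median -0.71), and of 17 ATP synthase subunits 13 fell (median -0.69). Peroxins, which build peroxisomes, fell in 13 of 16 (median -0.71). With library totals these medians were -0.04, -0.01 and -0.04. Proteasome subunits fell in 30 of 50 (median -0.52), mitochondrial ribosomal proteins in 42 of 77 (-0.55), aminoacyl-tRNA synthetases in 18 of 37 (-0.45) and autophagy proteins in 19 of 29 (-0.66). The medians of these last 4 turned positive with library totals, at 0.16, 0.12, 0.24 and 0.02. No member of these 7 families rose on the TMM scale. Their falls hold against the median gene and not as a share of all counts.

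Lipid-handling genes outside fatty acid synthesis moved in both directions. Of 37 genes of sphingolipid metabolism, 19 rose and 5 fell. B4galt6, a lactosylceramide synthase, was at 3.09, 3.66 and 2.67 CPM in normal and 35.97, 15.9 and 33.7 CPM in model libraries. Smpd1, the acid sphingomyelinase, fell from 63.6, 57.9 and 65.6 to 26.5, 38.8 and 35.9 CPM, and was not called with library totals (-0.21 on the log2 scale, adjusted p = 0.343). Phospholipid synthesis and remodelling split on the TMM scale, with 12 of 35 rising and 13 falling (median -0.14), but not with library totals, with 17 rising and 5 falling (median 0.54). Pla2g7, the secreted lipase that inactivates platelet-activating factor, was at 2.95, 2.98 and 2.44 CPM against 76.3, 41.99 and 45.4 CPM. Pemt makes phosphatidylcholine by methylating phosphatidylethanolamine, the route that does not need dietary choline. Its level was 341, 308 and 278 CPM in normal and 98.5, 177 and 116 CPM in model libraries, a log2 fold change of -1.24 ± 0.22 (adjusted p = 8.63e-04). Selenoi, an ethanolamine phosphotransferase, was at 102, 97.5 and 115 CPM against 27.9, 50.1 and 42.04 CPM. Both had every model library below every normal library.

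Among genes of eicosanoid synthesis, 9 of 20 rose and 2 fell. Hpgds, the prostaglandin D synthase of haematopoietic cells, was at 1.03, 1.53 and 1.11 CPM in normal and 36.98, 19.8 and 29.4 CPM in model libraries, and Ephx2, the soluble epoxide hydrolase, at 846, 950.1 and 979 CPM against 312, 491 and 240.2 CPM. Of 40 ABC transporters, 12 rose and 17 fell (median -0.39), and with library totals the balance turned, with 15 rising and 8 falling (median 0.30). Abcg1, a cholesterol exporter of macrophages, was at 8.84, 11.2 and 9.93 CPM against 81.6, 59.7 and 69.7 CPM, and Abcb10, a mitochondrial transporter, fell by 2.04 ± 0.23 on the log2 scale. Of 34 amino acid transporters, 12 rose and 8 fell (median 0.15), and with library totals 18 rose and 4 fell (median 0.85). Slc7a11, the cystine importer that feeds glutathione synthesis, was at 0.0736, 0.0852 and 0.148 CPM in normal and 10.99, 8.85 and 9.27 CPM in model libraries. Of 26 genes with apolipoprotein-type symbols, which include Apobr and Apobec1, 7 rose and 12 fell (median -0.64), and with library totals 8 rose and 6 fell (median 0.03). Apoa4, a component of triglyceride-rich lipoproteins, was at 2.95, 4.17 and 3.33 CPM against 209.9, 45.8 and 110.2 CPM, a log2 fold change of 5.13 (4.49 without model replicate 1). Lysosomal hydrolases and transporters rose in 22 of 40 and fell in 5.

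Some families of the machinery of gene expression were called rarely on the TMM scale, and others had a share of falls above the background. Of 79 cytosolic ribosomal proteins, 1 rose and 5 fell, and of 50 SR and hnRNP splicing factors, 3 rose and 3 fell. DEAD and DEAH box helicases gave 2 rises and 6 falls among 50. Of 338 Zfp-named zinc finger genes, 51 rose and 38 fell, and of 39 zinc finger and BTB genes, 5 rose and 7 fell. These shares lie below the backgrounds of 25.4% and 22.6%. Of 53 translation initiation factors, 2 rose and 16 fell (30.2%), and aminoacyl-tRNA synthetases fell in 18 of 37, both above the background of falls. Their shares of rises, 3.77% and 0%, were below the background. Not called were 35 of the initiation factors and 19 of the synthetases, so their calls in both directions together do not stand out from the 48.1% of all tested genes. A missing call does not show a steady level, and with library totals 46 ribosomal protein genes, 39 splicing factor genes and 173 Zfp genes were higher in the model group.

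A steady level was bounded by the 95% interval of the fold change. In 41 genes (0.311% of those tested), the whole interval lay within 0.32 of 0 on the log2 scale, and in 1930 it lay within 1.5-fold. Only genes with a small standard error can meet the narrower bound (the median over all tested genes was 0.228). The 41 are therefore not a count of all steady genes. Among the 10 most abundant of the 41 were Rac1, Rab5c, Mprip, Degs1, Upf1, Usp8, U2af2, Rab11b and Scaf1. Rac1, a small GTPase of actin dynamics, was at 168, 157 and 166 CPM in normal and 156, 169.8 and 163 CPM in model libraries. Degs1, which completes ceramide synthesis, was at 87.5, 85.6 and 96.1 CPM against 94.4, 87.02 and 91.4 CPM. The groups overlapped in both. None of 20 reference genes in common use met this bound, and none could. Even the smallest standard error among them, 0.148 for Ywhaz, gives an interval too wide for it. Within 1.5-fold lay 2 of the 20. Of these 20, 4 rose and 7 fell. Actb was at 582, 733 and 771 CPM in normal and 1366, 1113 and 1268 CPM in model libraries, Gapdh at 190.0, 197 and 184 CPM against 159.8, 113 and 114 CPM, and Sdha at 666, 574 and 717 CPM against 217, 348 and 282 CPM. Gusb, a lysosomal enzyme often used as a reference, rose by 1.32 ± 0.18 on the log2 scale. With library totals 10 of the 20 were higher and none lower, so Gapdh and Sdha were not called lower there. The Gapdh call was also lost when normal replicate 1, normal replicate 2, model replicate 2 or model replicate 3 was left out (adjusted p up to 0.0959).

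Pathway and ontology terms carried by the deposited table were counted where at least 15 members were tested. Among 328 KEGG pathways, the largest shares that rose were in Graft-versus-host disease (23 of 33) and other immune terms that share MHC genes. ECM-receptor interaction (44 of 68, led by Cd36 and Cd44), Leishmaniasis (38 of 59) and Hematopoietic cell lineage (47 of 74) were also among the top 8. The largest shares that fell were in Glyoxylate and dicarboxylate metabolism (25 of 29), Tryptophan metabolism (30 of 37, with Ido2 and Inmt of smallest p), Propanoate metabolism (23 of 29), Tyrosine metabolism (19 of 25) and the citrate cycle (22 of 29, with Pdhx and Sdhd). Primary bile acid biosynthesis fell in 12 of 16, led by Slc27a5 and Cyp7b1, and Steroid hormone biosynthesis in 43 of 59. Among 478 ontology processes, integrin-mediated signaling rose in 24 of 34 and cholesterol biosynthesis fell in 17 of 20, with no member rising. Terms share genes, and no enrichment test was made.

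The model libraries were less alike than the normal ones. Across tested genes, log2 levels correlated at 0.986 to 0.987 between normal libraries and at 0.965 to 0.983 between model libraries, where genes are not independent replicates. Model replicate 2 correlated with the normal libraries at 0.918 to 0.925, and the other model libraries at 0.846 to 0.876. Genes with the widest range within the model group were mostly hepatocyte genes. Cyp7a1, the rate-limiting enzyme of bile acid synthesis, was at 26.4, 191 and 11.04 CPM in model replicates 1 to 3 and at 120.4, 97.3 and 162 CPM in the normal libraries. Sult2a8, a bile acid sulfotransferase, was at 19.5, 228 and 24.1 CPM against 831, 1028 and 1043 CPM, and Cyp1a2, an inducible P450, at 39.5, 299.7 and 105 CPM against 721, 630.0 and 800.3 CPM. Model replicate 2 was the highest of the model libraries in all 3. Without it, the log2 fold change of Sult2a8 went from -3.42 to -5.48 and that of Cyp1a2 from -2.28 to -3.32. Other libraries stood apart for other genes. Igfbp1, a fasting-induced binding protein of insulin-like growth factors, was at 102, 78.5 and 904 CPM in the model and 1104, 374 and 456 CPM in the normal libraries. G6pc, the last enzyme of glucose release, was at 13.02, 73.3 and 139.6 CPM against 894, 606 and 1321 CPM, and its log2 fold change of -3.64 was -4.45 without model replicate 3. Model replicate 3 was the highest of the model libraries for Igfbp1, and model replicate 1 was far the lowest for G6pc. Bhmt, which uses the choline product betaine to make methionine, was at 1209, 2636 and 379.8 CPM against 3979, 3191 and 2494 CPM and was not called.

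The distance of model replicate 2 from the normal mean was measured on genes called past 2-fold without that library, as a percent of the mean change of the other 2 model libraries (log2 of CPM plus 0.5). For 1802 rises its median was 78.8% (quartiles 57.6% to 90.1%), and for 808 falls 60.5% (50.4% to 71.6%). The same measure gave 113% and 124% for model replicate 1 and 99.8% and 103% for model replicate 3, each on its own set of genes. By family, the median position ran from below to above the other 2 libraries. Interferon-induced OAS, IFIT and IFI genes stood at a median of 93.5% (16 genes), C-type lectins at 91.8% (12 genes) and Toll-like receptors at 88.7% (9 genes). Collagens stood at 55.7% (14 genes), integrins at 58.6% (12 genes) and YAP and TEAD targets at 46.5% (10 genes). Cell cycle kinases and mitotic regulators stood at 118% (22 genes), so this library exceeded the other 2 there. Bile duct markers were also low in this library. Epcam was at 37.7, 4.18 and 29.4 CPM and Krt19 at 8.297, 0.217 and 10.3 CPM in model replicates 1 to 3, against 1.92, 2.47 and 0.889 CPM and 0.884, 1.53 and 1.78 CPM in normal libraries. These are values of 1 library with no replicate, and no test was made of the difference between families.

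**Figure D5:**
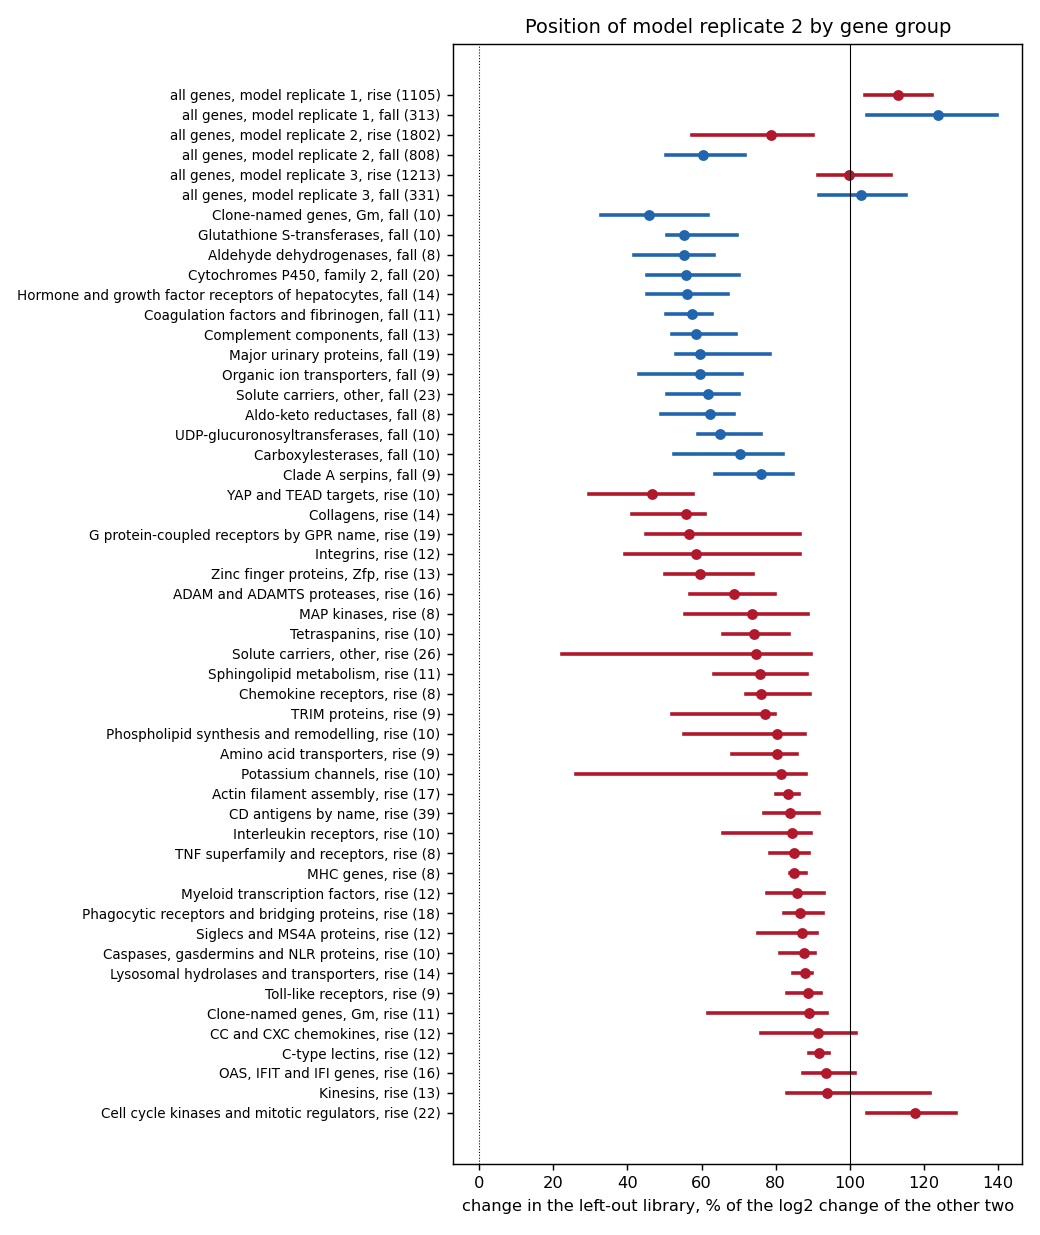
Median (point) and quartiles (line) of the change in model replicate 2 as a percent of the mean change of the other 2 model libraries, by gene group, with the all-gene values of each model replicate for comparison. Cell cycle genes lie at 118% and interferon-induced genes at 93.5%, while collagens lie at 55.7% and YAP and TEAD targets at 46.5%.

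The authors' deposited table for model against normal held 16828 genes and called 5420, 2910 of them with a higher and 2510 with a lower model mean. The calls described above included 5236 of the genes called in the authors' deposited table with an equal sign, and 0 with the opposite sign.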

How the data were processed

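Total RNA of mouse liver had been extracted with Trizol and made into libraries with the NEBNext Ultra kit, per the labels, and the submitters' processing notes name mm9. The deposited expression table gave, per the file headers, raw read counts per gene for 9 libraries, and these were used for every test. It also held FPKM values and gene lengths by the authors, not used here. The authors' comparison table, made with DESeq per its name, gave mean normalised counts (a signal by the authors), a fold ratio by the authors, and raw and adjusted p-values, also by the authors, of which only the calls and their direction were used. The labels and headers name no aligner, counting tool, strand setting or sex. The build of the listed positions was not settled, so printed positions come from GENCODE M21 and RefSeq. Of the expression table, 1 line was blanked before this work and is not analysed here.

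The tests used edgeR 4.0.16 in R 4.3.3. Counts were filtered with filterByExpr (minimum count 10, minimum total 15), scaled with TMM factors and fitted with 1 quasi-likelihood model of group on all 9 libraries. Model minus normal was tested with glmQLFTest, and with glmTreat against a 2-fold change, with Benjamini-Hochberg adjustment over 13200 genes and a threshold of 0.05. The words rose and fell mark called genes. A level is TMM-scaled CPM unless CPM of the library total is stated, ± after a log2 value is the standard error and after other values the SD (n = 3). On simulated counts, 86 of 100 genes changed by 1.5 on the log2 scale, 99 of 100 changed by 3 and 5 of 12690 unchanged genes were called. In that simulation few genes changed, as many up as down, and none of the 20% with the lowest level. In the data 48.1% of genes were called and direction went with level. The simulation therefore does not show how far the calls depend on the scaling. Replicates of a group differed by more than counting noise, so none was merged.

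The families, lists and tests were chosen with earlier results of these data known. Named genes follow a rule: 10 largest gains and losses of library share, 12 firmest changes each way, up to 8 switched genes each way, steady and reference genes, up to 3 members of smallest p and 1 in the other direction per family, any listed transcription factor, leading terms and the widest ranges within the model group. Others, such as Akr1b8, Akr1b10, Cyp4f14, Egfr, Ghr, Krt19 and Pemt, were chosen after their values were seen. Some items that this rule covers are not reported here. Alternatives were DESeq2 1.42.0 (size factors and Wald test), limma 3.58.1 (voom), library totals, other filters, the 6 libraries alone, the replicate number as a block and each library left out.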

Additional observations from a re-analysis of the deposited data

How the results depend on the processing

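With library totals in place of TMM factors, 7263 genes rose and 831 fell, and of these 2843 rose and 187 fell past 2-fold (3030 together). Of 147 named genes with a fold change, 129 were called. Among the 129, 2 turned direction under library totals, Gapdh to 0.14 and Ddx3y to 0.056 on the log2 scale. Another 9 kept their direction but lost the call (Cxcl12, Cyp2e1, Hnf4a, Mmp19, Sdha, Smpd1, Stat5b, Timd4 and Tk1). Genes not called could also turn, as Ahsg and Hpx had negative TMM-scaled changes but gained in CPM of the library total. Past 2-fold, limma-voom called 1148 genes (849 up and 299 down), and at its usual threshold Cux2, Dbp and Lamc3 were not called. A minimum of 1.5-fold gave 3504 (2304 up and 1200 down) and a minimum of 4-fold 431 (354 up and 77 down). Leaving out 1 library each time gave 313 (without model replicate 1) to 808 (without model replicate 2) falls past 2-fold. The difference in library share was -4.23 percentage points for the top 20 genes, -12.7 for the top 500 and -12.4 for the top 100 without mitochondrial genes. The count of steady genes, 41, was the least stable: 12 with library totals, 115 with the 6 libraries alone, 0 with the replicate block, 0 to 4 with 1 library left out and 1930 within 1.5-fold. With the replicate block 3093 genes rose and 2618 fell, and among named genes the calls of Gapdh and Tef were lost. The labels do not pair the replicate numbers, and after removal of group means 0 of 9 pairs with equal numbers correlated above 0.1. DESeq2 by its Wald test called 3486 rises and 3136 falls. The causes of these differences were not tested, except that a lower minimum fold and fewer libraries change the counts by construction.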

Other observations

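With 3 libraries per group, an exact permutation test of a single value cannot reach a p below 0.1. The sex of the mice is not stated. Transcripts of Y-linked genes were counted in all 6 libraries, as for Ddx3y, with 923 to 1078 counts in normal and 979 to 1268 in model libraries. Food intake and the hour of collection are also not stated. The part of sex, food intake and hour in the differences was not tested. Levels in bulk liver do not separate a change in cell numbers from a change within cells. The families and lists were written by hand or by symbol and share members.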
